A study of Mus musculus with 12 samples.

Results

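The genes described here are 35 mouse genes of sterol and fatty acid synthesis, read in all 12 heart libraries of the series. They were chosen by name from a list, with earlier results of these data known. They were 35 of 49315 genes in the count files, and each of the 35 passed the filter on low counts that left 15476 genes for testing. Hearts came from female, wild-type C57BL/6J mice (strain label C57BL/6) aged 27 to 29 weeks. The control diet gave 10% of its energy as fat, and the Western diet gave 45% as fat and 17% as sucrose, each for 15 weeks before breeding began. On each diet, postpartum hearts were taken 1 day after delivery, and nonpregnant hearts came from females that stayed on the diet unbred, so 4 groups of 3 libraries result. All were libraries of whole trimmed heart tissue, in which fewer cells of a type and less RNA per cell cannot be told apart. The series asks about remodelling of the heart in pregnancy with metabolic syndrome.

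Cholesterol is built from acetyl-CoA through mevalonate, the isoprenoid units and squalene, and is finished by a chain of enzymes that trim and reduce the sterol ring. Fatty acids are built from the same acetyl-CoA through malonyl-CoA, then lengthened by elongases and given double bonds by desaturases. The SREBP transcription factors turn on both routes: SCAP carries them from the endoplasmic reticulum when sterol is scarce, and INSIG proteins hold them back when it is plentiful. The heart burns fatty acids as its main fuel and makes few of them, while fat tissue and liver are the classic sites of their synthesis.

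The 12 libraries held 22754591 to 29492416 counts. Levels are in CPM, a gene's counts per 1000000 counts of the scaled library. A count of 0 allows a level of 0.102 to 0.132 CPM, depending on the library and for counting error only. The summed level of 6 cardiomyocyte markers was 54010 to 66790 CPM. One library stood apart: control diet postpartum replicate 3, here the fat-marker library. It held Ucp1, the uncoupling protein of brown fat, at 73.1 CPM against 0 to 0.545 CPM in the other 11, and Adipoq, the fat cell hormone adiponectin, at 19.6 against 0.0438 to 0.543 CPM. It was the highest of the 12 libraries for 6 of 10 white and 4 of 7 brown adipocyte markers. Results are therefore given with all 12 and with the other 11 libraries. The labels do not say that the libraries of a group are separate animals, so the tests rest on the spread among libraries, which may be technical. Postpartum titles carry lower numbers than nonpregnant ones, so whatever goes with that order and pregnancy cannot be told apart.

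The promoters of 3 members are shown because 2 of them carry at least 1 of the sequence motifs counted here and the third none. Acly and Fasn were both high in the fat-marker library, and a link to these promoters was not tested. Each is the 250 bases before the RefSeq start (GRCm38.p6), 5′ to 3′ on the gene's strand: chr13:119690101-119690350 (plus strand) for Hmgcs1, chr11:120824548-120824797 (minus strand) for Fasn and chr11:100528001-100528250 (minus strand) for Acly. Capitals mark the letters that match a motif on either strand.
Hmgcs1: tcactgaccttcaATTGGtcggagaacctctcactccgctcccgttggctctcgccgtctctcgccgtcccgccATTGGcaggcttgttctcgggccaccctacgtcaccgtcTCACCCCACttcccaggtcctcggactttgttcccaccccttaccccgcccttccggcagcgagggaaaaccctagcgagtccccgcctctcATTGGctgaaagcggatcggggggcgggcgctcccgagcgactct
Fasn: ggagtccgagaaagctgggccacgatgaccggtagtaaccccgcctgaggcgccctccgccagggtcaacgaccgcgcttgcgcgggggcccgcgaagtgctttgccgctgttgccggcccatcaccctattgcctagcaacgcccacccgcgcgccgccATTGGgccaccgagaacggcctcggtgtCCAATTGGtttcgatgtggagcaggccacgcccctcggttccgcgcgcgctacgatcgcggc
Acly: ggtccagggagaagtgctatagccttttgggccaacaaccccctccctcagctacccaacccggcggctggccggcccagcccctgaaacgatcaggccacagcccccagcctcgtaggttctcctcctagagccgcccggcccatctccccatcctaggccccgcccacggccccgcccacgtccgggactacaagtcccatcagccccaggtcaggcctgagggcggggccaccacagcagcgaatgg
Hmgcs1, the enzyme that makes HMG-CoA, holds a match to a sterol response element (TCACNCCAC) that begins 137 bases before the start, and CCAAT boxes (CCAAT) that begin 237, 176 and 45 bases before it. Fasn holds CCAAT boxes at 90, 62 and 59 bases before the start, of which the last 2 overlap on opposite strands. Acly holds no match to either. Of 28 members in the RefSeq promoter table, 23 (82.1%) had a CCAAT box in this window, against 37.49% of all 27025 genes in the table. An E-box (CACGTG) was present in 6 of 28 members (21.4%) and in 6.86% of all genes, and the sterol response element in 1 member, Hmgcs1 (3.6%), and in 1.22% of all genes. These are letter matches and not measured binding. Only these letters were searched, and only in these 250 bases, so a promoter without a match is not shown to lack such an element. Fdps, Fdft1, Sqle, Stard4, Scd1, Scd2 and Fads1 were not matched.

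Per kilobase of gene length, the members differed widely in level. Me1, the cytosolic malic enzyme that yields NADPH for lipid synthesis, was first with a median of 33.3 CPM per kilobase over the 11 libraries (27.7 to 41.7). Insig2, an endoplasmic reticulum protein that retains SCAP, followed at 14.0 (13.0 to 15.3), Fdft1, squalene synthase, at 12.9 (11.5 to 17.3), and Hmgcs1 at 9.63 (8.73 to 10.9). At the low end were Lss, lanosterol synthase (0.385), Sqle, squalene epoxidase (0.294), and Elovl6, the elongase of palmitate (0.165 CPM per kilobase). The order rests also on the authors' gene lengths. Lss, at 10787 bases, had a median of 4.15 CPM, above the 3.725 CPM of Fads2 at 1508 bases, which ranks above it per kilobase. Of 34 pairs of neighbours in this order, 31 had overlapping ranges. The ranges of Me1 and Insig2, of Fdft1 and Hmgcs1, and of Acaca and Idi1 did not overlap.

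**Figure D1:**
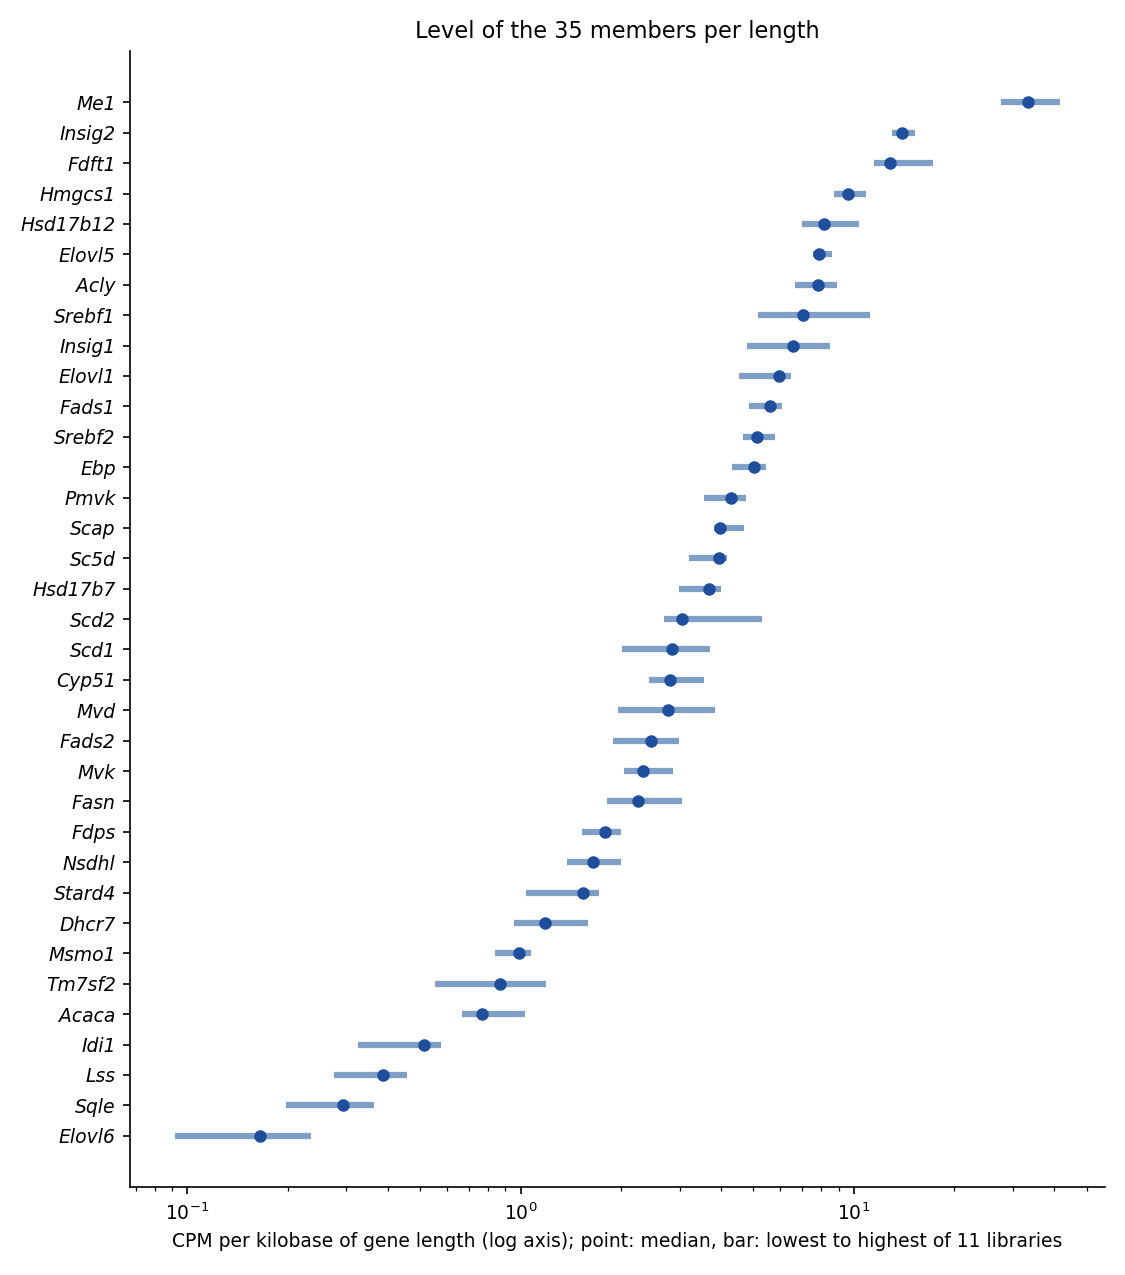
Level of each of the 35 members in CPM per kilobase of gene length on a log axis, as the median (point) and the lowest to highest value (bar) of the 11 libraries other than control diet postpartum replicate 3. Me1 lies at the top with a median of 33.3 and Elovl6 at the bottom with 0.165.

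The fat-marker library set the highest level for 13 of the 35 members, 37.1% of them, where it was highest for 7.63% of all genes tested. These 13 were Idi1, Sqle, Lss, Msmo1, Nsdhl, Srebf2, Acly, Acaca, Fasn, Scd1, Elovl5, Elovl6 and Hsd17b12. In 5 of them (Acly, Acaca, Fasn, Scd1 and Elovl6) it exceeded the highest of the other 11 libraries by at least 1.5-fold, as it did in 0.349% of all genes tested. The size differed between the 5: it was 13.3-fold over the next highest library for Elovl6, 10.8-fold for Scd1, 6.27-fold for Fasn, 2.29-fold for Acaca and 1.88-fold for Acly. These 5 make, desaturate or elongate fatty acids, but the other 7 members with such roles did not stand apart, at 0.758 times the next highest library for Me1 to 1.22 times for Hsd17b12. The 6 mevalonate enzymes stood at 0.735 to 1.26 times. The part of fat tissue in these levels was not tested. As the list was chosen with earlier results of these data known, the shares above do not test it.

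**Figure D2:**
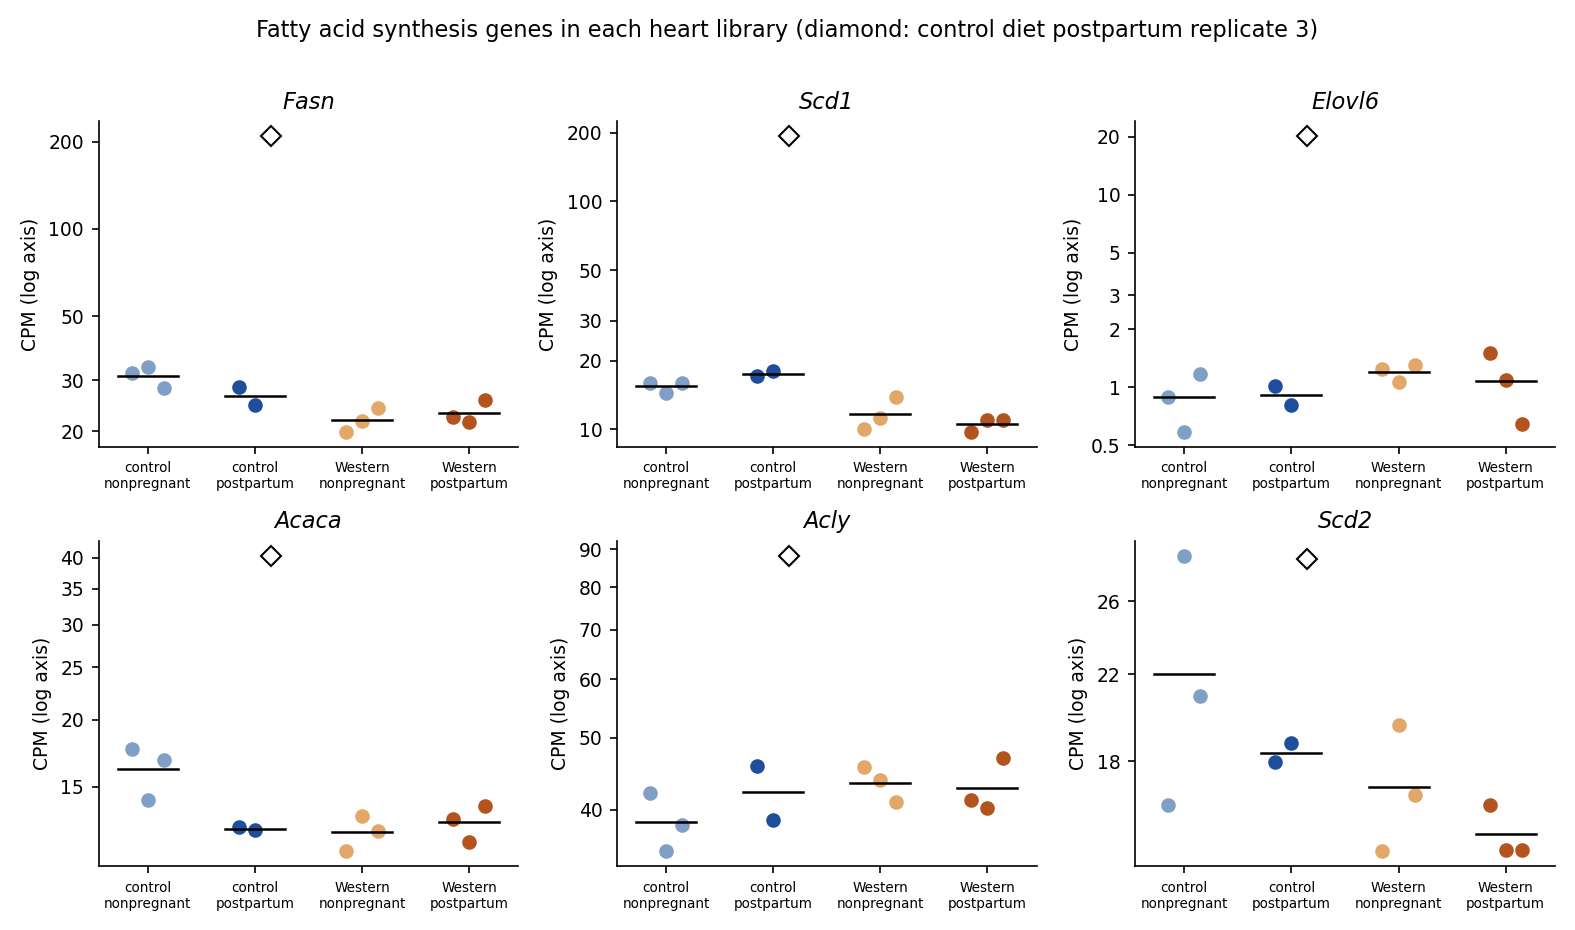
CPM (log axes, each with its own range) of 6 fatty acid synthesis and desaturation genes in each library by group, where lines are group means without control diet postpartum replicate 3, drawn as a diamond. The diamond lies above every other point for Fasn, Scd1, Elovl6, Acaca and Acly, and level with 1 nonpregnant library for Scd2.

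Of the 35 members, 5 passed an adjusted p under 0.05 in at least 1 of 8 comparisons, with 12 or with 11 libraries (14.3% of members, and 4.6% of all genes tested in both). The members were chosen with earlier results of these data known, so these shares describe the list and do not test it. Me1 was higher and Scd1 and Fasn lower on the Western diet, where Scd1 and Fasn passed only with the 11 libraries. In postpartum hearts, Fdft1 was higher and Hsd17b12 lower on that diet, the only comparison in which either passed. Fdft1 passed there only with 12 libraries. With 12 libraries, edgeR's quasi-likelihood test with Benjamini-Hochberg adjustment over all genes called 2 of 35 members for Western against control diet in postpartum hearts, where it called 0.879% of all genes. For Western diet postpartum against control diet nonpregnant hearts it called 1 member, 2.86% of them, near the 2.62% of all genes. In the diet effect averaged over both pregnancy states it called 1 member and 1.38% of all genes. It called no member for pregnancy state on the control diet (0.239% of all genes) or on the Western diet (0.588%), for diet in nonpregnant hearts (0.0582%), for the pregnancy effect averaged over diets (1.78%) or for the interaction of diet and pregnancy (0% of all genes).

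An unadjusted p under 0.05 was held by 10 members for diet in postpartum hearts (14.6% of all genes), 8 for Western diet postpartum against control diet nonpregnant hearts (18.2%) and 10 for the averaged diet effect (14.3%). In the 5 comparisons with no call, the members with an unadjusted p under 0.05 numbered 7 on the control diet (12.5% of all genes), 4 on the Western diet (14.7%), 2 for diet in nonpregnant hearts (9.58%), 3 for pregnancy (17.6%) and 4 for the interaction (8.98%). DESeq2 called 1 member on the control diet and 1 for pregnancy and none in the other 3, and limma-voom called none in these 5. The share of all genes called was not counted for these 2 methods. With the 11 libraries, edgeR called 2 members for diet in postpartum hearts (0.471% of all genes), 3 for Western diet postpartum against control diet nonpregnant (2.35%) and 3 for the averaged diet effect (0.916%). It called none on the control diet (0.00636%), on the Western diet (0.477%), for diet in nonpregnant hearts (0.0445%), for pregnancy (0.592%) or for the interaction (0.00636%). The share of members whose groups did not overlap in 12 libraries was above that of all genes mainly downwards in 2 comparisons. These were diet in postpartum hearts (20.0% of members) and Western diet postpartum against control diet nonpregnant hearts (17.1%). The latter 2 groups differ in both diet and pregnancy state. Both comparisons hold the Western diet postpartum libraries. As the list was chosen with earlier results of these data known, these shares do not test it. Diet in postpartum hearts put the groups apart upwards in 3 members (9.86% of all genes) and downwards in 7 (9.28%). The latter were Hmgcs1, Lss, Hsd17b7, Dhcr7, Scd1, Scd2 and Hsd17b12. Diet in nonpregnant hearts gave 1 upwards (6.92%) and 3 downwards (7.84%), and Western diet postpartum against control diet nonpregnant hearts gave 4 (10.3%) and 6 (9.89%). Pregnancy state gave 2 upwards (8.12%) and 3 downwards (8.96%) on the control diet, and 1 (10.1%) and 3 (9.51%) on the Western diet. The comparisons share groups of libraries, so their values are set side by side and not counted against each other.

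The first steps of the sterol route, from acetyl-CoA units to farnesyl pyrophosphate, are made by 6 members, and none of them passed edgeR's test in any comparison with 12 or 11 libraries. In the diet effect averaged over pregnancy states, all 6 log2 fold changes were below 0 with 12 and with 11 libraries. Their medians were -0.11 and -0.12, beside 0.00 over all genes tested with both. Hmgcs1 stood at 28.2, 35.3 and 32.5 CPM in nonpregnant and 33.0, 31.1 and 35.2 CPM in postpartum hearts on the control diet, and at 29.1, 31.4 and 34.1 CPM in nonpregnant and 30.3, 29.2 and 28.8 CPM in postpartum hearts on the Western diet. The 3 Western diet postpartum libraries lay below the 3 control diet postpartum ones (log2 fold change -0.17, SE 0.09, adjusted p = 0.382), and the other groups overlapped.

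Mvd, the decarboxylase that yields isopentenyl pyrophosphate, had levels of 4.79, 7.10 and 6.26 CPM in nonpregnant and 4.77, 5.16 and 5.23 CPM in postpartum hearts on the control diet, and 5.33, 5.98 and 5.25 CPM in nonpregnant and 4.25, 5.04 and 3.64 CPM in postpartum hearts on the Western diet. Western diet postpartum libraries were all below Western diet nonpregnant ones, and the averaged pregnancy effect was -0.31 on the log2 scale (SE 0.11, adjusted p = 0.165). From control diet nonpregnant to Western diet postpartum hearts Mvd differed by -0.49 (SE 0.16, adjusted p = 0.118), a value that passed without control diet nonpregnant replicate 1 (-0.63, adjusted p = 0.0414). This difference passed in 2 of 20 alternative settings, both without that library, and missed the threshold in the rest. Mvk, mevalonate kinase, was at 6.79, 7.69 and 6.94 CPM in nonpregnant and 6.03, 6.09 and 5.65 CPM in postpartum hearts on the control diet, and at 5.45, 7.16 and 5.53 CPM in nonpregnant and 6.25, 6.79 and 5.95 CPM in postpartum hearts on the Western diet. Its control diet libraries were lower postpartum without overlap, and its groups overlapped in the other comparisons of 1 factor. Pmvk, phosphomevalonate kinase, ranged from 6.08 to 8.14 CPM, Fdps, farnesyl pyrophosphate synthase, from 6.44 to 8.41 CPM and Idi1, the isomerase of isopentenyl pyrophosphate, from 1.14 to 2.53 CPM over the 12 libraries.

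From squalene on, 11 members close and finish the sterol, and 1 of them, Fdft1, rose in 1 comparison. Fdft1 (chr14:63145153-63177793, GRCm38, minus strand) joins farnesyl units into squalene, the first step committed to sterols. It stood at 39.5, 36.6 and 36.8 CPM in nonpregnant and 32.8, 35.4 and 30.9 CPM in postpartum hearts on the control diet, and at 44.1, 35.2 and 36.1 CPM in nonpregnant and 43.0, 41.6 and 49.4 CPM in postpartum hearts on the Western diet. The Western diet postpartum libraries were all above the control diet ones of either state and overlapped the Western diet nonpregnant ones. In postpartum hearts it was higher on the Western diet by 0.44 on the log2 scale (SE 0.09, adjusted p = 0.0425). The call ended at adjusted p = 0.137 in the 11 libraries (log2 fold change 0.39), and on leaving out each other postpartum library in turn except Western diet postpartum replicate 2. On the control diet, adjusted p was 0.134 with postpartum replicate 1 left out and 0.0603 with replicate 2 left out. On the Western diet it was 0.0838 with postpartum replicate 1 left out and 0.217 with replicate 3 left out. With only the compared groups in the model it was 0.0616. Of the 2860 exon bases of Fdft1, 767 overlap Ctsb, a lysosomal protease gene on the other strand at a mean of 469 CPM, and the strand setting of the counting is not given in the sources used here. Ctsb itself differed by -0.08 in the same comparison (adjusted p = 0.587).

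No other late sterol enzyme passed the threshold. For diet in postpartum hearts 9 of the 11 log2 fold changes were below 0, with a median of -0.19 in 12 and -0.15 in 11 libraries, where 49.9% of all genes were above 0 in 12 libraries. In nonpregnant hearts 7 of the 11 were below 0, with a median of -0.03 in 12 libraries. Lss, which folds the epoxide of squalene into lanosterol, was at 4.93, 3.91 and 4.40 CPM in nonpregnant and 3.58, 4.38 and 5.03 CPM in postpartum hearts on the control diet, and at 4.64, 4.24 and 4.15 CPM in nonpregnant and 3.51, 2.98 and 3.30 CPM in postpartum hearts on the Western diet. The Western diet postpartum libraries were the lowest 3 of the 12, by -0.41 on the log2 scale against Western diet nonpregnant hearts (SE 0.15, adjusted p = 0.236). Sc5d, which sets a double bond in the sterol ring, measured 20.2, 19.2 and 19.6 CPM in nonpregnant and 19.2, 18.6 and 18.4 CPM in postpartum hearts on the control diet, and 20.3, 18.8 and 19.6 CPM in nonpregnant and 15.6, 18.7 and 16.6 CPM in postpartum hearts on the Western diet. These too were lower postpartum on the Western diet without overlap (log2 fold change -0.21, SE 0.07, adjusted p = 0.217). Dhcr7, the reductase of the last step of 1 branch, ranged from 5.56 to 9.27 CPM and had -0.39 for diet in postpartum hearts (adjusted p = 0.146). Ranges over the 12 libraries were 10.7 to 15.7 CPM for Cyp51, the demethylase of lanosterol, 15.3 to 20.5 CPM for Hsd17b7, a sterol ketone reductase, and 9.93 to 12.6 CPM for Ebp, the sterol isomerase. They were 1.10 to 2.5 CPM for Sqle, 1.93 to 4.15 CPM for Tm7sf2, a sterol reductase, 5.15 to 7.44 CPM for Msmo1, the methylsterol oxidase, and 3.94 to 6.07 CPM for Nsdhl, which removes carbon from the same intermediates.

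None of the 6 members that sense or carry sterols passed edgeR's test in any comparison with 12 or 11 libraries. Srebf1, which encodes the SREBP-1 factors of fatty acid synthesis, stood at 39.7, 62.9 and 53.0 CPM in nonpregnant and 35.1, 36.0 and 35.7 CPM in postpartum hearts on the control diet, and at 31.5, 49.9 and 47.0 CPM in nonpregnant and 29.2, 41.2 and 32.1 CPM in postpartum hearts on the Western diet. On the control diet the postpartum libraries were close together and all below the nonpregnant ones, and on the Western diet the groups overlapped. The averaged pregnancy effect was -0.43 on the log2 scale (SE 0.13, adjusted p = 0.094, and 0.159 in the 11 libraries). It passed in edgeR without Western diet postpartum replicate 2 (adjusted p = 0.0421), without Western diet nonpregnant replicate 1 (0.0442) or without control diet nonpregnant replicate 1 (0.0319), and in DESeq2 (0.0203, and 0.0481 in the 11 libraries). With edgeR without the filter on low counts included, this effect passed in 6 of 30 alternative settings and missed the threshold in the rest. From control diet nonpregnant to Western diet postpartum hearts Srebf1 differed by -0.60 (SE 0.18, adjusted p = 0.0887). That value passed in edgeR on leaving out replicate 2 of the Western diet postpartum hearts (0.0388) or replicate 1 of the control diet nonpregnant ones (0.0345), and in DESeq2 (0.0212, and 0.0257 in the 11 libraries). This difference passed in 7 of 20 alternative settings and missed the threshold in the rest. Of the 5634 exon bases of Srebf1, 109 overlap Rai1 on the other strand.

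Srebf2, which encodes the SREBP-2 factor of sterol synthesis, was at 28.9, 23.7 and 25.7 CPM in nonpregnant and 26.2, 26.1 and 29.0 CPM in postpartum hearts on the control diet, and at 25.4, 23.3 and 23.5 CPM in nonpregnant and 25.6, 24.6 and 26.8 CPM in postpartum hearts on the Western diet. Its groups overlapped by diet in both states, with an averaged diet effect of -0.10 (SE 0.06, adjusted p = 0.452). Insig1, a retainer of SCAP that is itself a target of SREBP, was at 23.1, 14.8 and 18.8 CPM in nonpregnant and 15.7, 14.9 and 20.7 CPM in postpartum hearts on the control diet, and at 26.3, 22.3 and 24.6 CPM in nonpregnant and 16.4, 23.3 and 20.3 CPM in postpartum hearts on the Western diet. Its groups overlapped in each comparison of 1 factor in 12 libraries, and its averaged diet effect was 0.29 (SE 0.12, adjusted p = 0.267), or 0.37 in the 11 libraries (SE 0.11, adjusted p = 0.166). Insig2 ranged from 45.1 to 53.0 CPM, Scap, the escort of SREBP, from 28.2 to 34.8 CPM, and Stard4, a cytosolic sterol carrier, from 5.81 to 9.61 CPM.

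Of the 4 genes that make palmitate and supply its carbon and NADPH, Me1 rose and Fasn fell on the Western diet, the latter in the 11 libraries. Me1 (chr9:86581371-86695953, minus strand) stood at 106, 115 and 122 CPM in nonpregnant and 114, 113 and 122 CPM in postpartum hearts on the control diet, and at 137, 131 and 136 CPM in nonpregnant and 158, 128 and 161 CPM in postpartum hearts on the Western diet. Each of the 6 Western diet libraries was above each of the 6 control diet libraries, and the fat-marker library, at 122 CPM, lay level with control diet nonpregnant replicate 3. The averaged diet effect was 0.30 on the log2 scale (SE 0.06, adjusted p = 0.0205), and 0.32 in the 11 libraries (adjusted p = 0.0295). Such a separation of the diets upwards was seen in 0.801% of all genes in 12 and 1.04% in 11 libraries. The difference from control diet nonpregnant to Western diet postpartum hearts was 0.38 (SE 0.08, adjusted p = 0.0271), and diet in postpartum hearts gave 0.36 (adjusted p = 0.0543). The averaged call ended, at adjusted p-values from 0.0501 to 0.0563, without any 1 of control diet postpartum replicates 1 and 2, Western diet postpartum replicates 1 and 3, Western diet nonpregnant replicate 3 or control diet nonpregnant replicate 2. The call against control diet nonpregnant hearts ended without Western diet postpartum replicate 1 (0.12) or 3 (0.0957) or control diet nonpregnant replicate 1 (0.0518) or 2 (0.091), and with only the compared groups in the model (0.0965). The 11-library averaged call for Me1 held in 3 of 11 fits that left out 1 further library (0.0517 to 0.138 in the other 8), and the call against control diet nonpregnant hearts in 1 of 6.

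Fasn (chr11:120805846-120824547, minus strand) encodes fatty acid synthase, which builds palmitate. Its levels were 31.8, 33.4 and 28.3 CPM in nonpregnant and 28.4, 24.7 and 209 CPM in postpartum hearts on the control diet, and 19.9, 21.7 and 24.0 CPM in nonpregnant and 22.4, 21.5 and 25.7 CPM in postpartum hearts on the Western diet. The 209 CPM are those of the fat-marker library, and without it the Western diet libraries were below the control diet ones in nonpregnant hearts and overlapped them in postpartum hearts. With 12 libraries, the averaged diet effect was -1.21 on the log2 scale with a wide error (SE 0.42, adjusted p = 0.19). In the 11 libraries it was -0.35 (SE 0.07, adjusted p = 0.0393), and from control diet nonpregnant to Western diet postpartum hearts Fasn differed by -0.42 (SE 0.10, adjusted p = 0.041). The averaged call held in 4 of 11 fits in which 1 further library was left out, with log2 fold changes from -0.40 to -0.30. In the other 7 fits the adjusted p was 0.0532 to 0.193, and the call against control diet nonpregnant hearts held in none of 6 such fits. The pregnancy difference on the control diet went from 1.49 with 12 to -0.23 with 11 libraries, neither past the threshold (adjusted p = 0.308 and 0.532).

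Acaca, the carboxylase that makes malonyl-CoA, stood at 17.6, 14.2 and 16.8 CPM in nonpregnant and 12.6, 12.5 and 40.3 CPM in postpartum hearts on the control diet, and at 11.4, 13.2 and 12.4 CPM in nonpregnant and 13.1, 11.8 and 13.8 CPM in postpartum hearts on the Western diet. In the 11 libraries, control diet nonpregnant hearts were above every other library, without a call in any comparison (control diet postpartum -0.37, SE 0.11, adjusted p = 0.342). Acly, which splits citrate into acetyl-CoA, stood at 42.1, 35.1 and 38.1 CPM in nonpregnant and 45.8, 38.7 and 88.2 CPM in postpartum hearts on the control diet, and at 45.7, 43.9 and 41.0 CPM in nonpregnant and 41.2, 40.2 and 46.9 CPM in postpartum hearts on the Western diet. Its groups overlapped, and the averaged diet effect of -0.13 in 12 libraries was 0.10 in the 11.

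Scd1 fell on the Western diet in the 11 libraries, and the other 3 desaturases did not pass. Scd1 (chr19:44394451-44407709, minus strand) makes oleate and palmitoleate from saturated fatty acids and is a classic SREBP-1 target. It stood at 16.0, 14.5 and 15.9 CPM in nonpregnant and 17.2, 17.95 and 194 CPM in postpartum hearts on the control diet, and at 10.0, 11.2 and 13.8 CPM in nonpregnant and 9.76, 10.9 and 10.96 CPM in postpartum hearts on the Western diet. Each Western diet library was below each control diet library, with or without the fat-marker library at 194 CPM. The same separation downwards was seen in 0.452% of all genes in 12 libraries and 0.757% in the 11.

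With 12 libraries the averaged diet effect on Scd1 was -1.63 (SE 0.51, adjusted p = 0.142), and in the 11 libraries it was -0.57 on the log2 scale (SE 0.08, adjusted p = 0.00679). The fold change shrank without the fat-marker library, and its standard error shrank more. In postpartum hearts the 11-library difference was -0.74 (SE 0.12, adjusted p = 0.0277), in nonpregnant hearts -0.40 (SE 0.11, adjusted p = 0.291), and their difference had an adjusted p of 0.662. From control diet nonpregnant to Western diet postpartum hearts it was -0.55 (SE 0.11, adjusted p = 0.0258). The averaged call held in all 11 fits that left out 1 further library (adjusted p 0.00251 to 0.0371). The postpartum call held in 1 of 5 such fits and was lost on leaving out postpartum replicate 1 (0.317) or 2 (0.115) of the control diet and postpartum replicate 1 (0.073) or 3 (0.105) of the Western diet. The call against control diet nonpregnant hearts held in 2 of 6. Over the 11 libraries the summed white adipocyte list, most of it Fabp4, was 523 to 650 CPM on the control diet and 643 to 852 CPM on the Western diet. The fat-marker library itself had a sum of 768 CPM, within the Western diet range, so this sum did not set that library apart. The rarer fat cell markers differed from that sum. In postpartum hearts 5 of the 10 markers (Adipoq, Cfd, Plin1, Cidec and Retn) had lower means on the Western diet, 3 had higher means and 2 were at 0. Adipoq was at 0.306 and 0.543 CPM in the 2 control diet postpartum libraries and at 0.327, 0.0438 and 0.0856 CPM in the Western diet ones, so these overlapped. The values of 0.0438 and 0.0856 CPM lie below the 0.102 to 0.132 CPM that a count of 0 allows. Directions of markers at such levels rest on very few counts. Mean levels on the control and the Western diet postpartum were 0.553 and 0.206 CPM for Plin1 and 0.456 and 0.221 CPM for Cidec. In nonpregnant hearts 3 of the 10 had lower means on the Western diet, and Adipoq was at 0.286, 0.126 and 0.454 CPM on the control diet and 0.387, 0.379 and 0.282 CPM on the Western diet. Summed hepatocyte markers were highest in Western diet nonpregnant replicate 3 (26.02 CPM) and control diet postpartum replicates 2 (16.9) and 3 (10.7), against at most 3.57 CPM elsewhere. The part of these cells in the result was not tested.

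Scd2, a second stearoyl-CoA desaturase, was at 16.3, 28.9 and 20.9 CPM in nonpregnant and 17.98, 18.8 and 28.7 CPM in postpartum hearts on the control diet, and at 14.6, 19.6 and 16.7 CPM in nonpregnant and 16.3, 14.7 and 14.7 CPM in postpartum hearts on the Western diet. Its averaged diet effect of -0.45 had an adjusted p of 0.152, and -0.32 in the 11 libraries one of 0.277. Fads1 and Fads2, which desaturate polyunsaturated fatty acids, ranged from 16.8 to 21.1 and from 2.86 to 4.51 CPM, with averaged diet effects of 0.10 and 0.12.

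**Figure D3:**
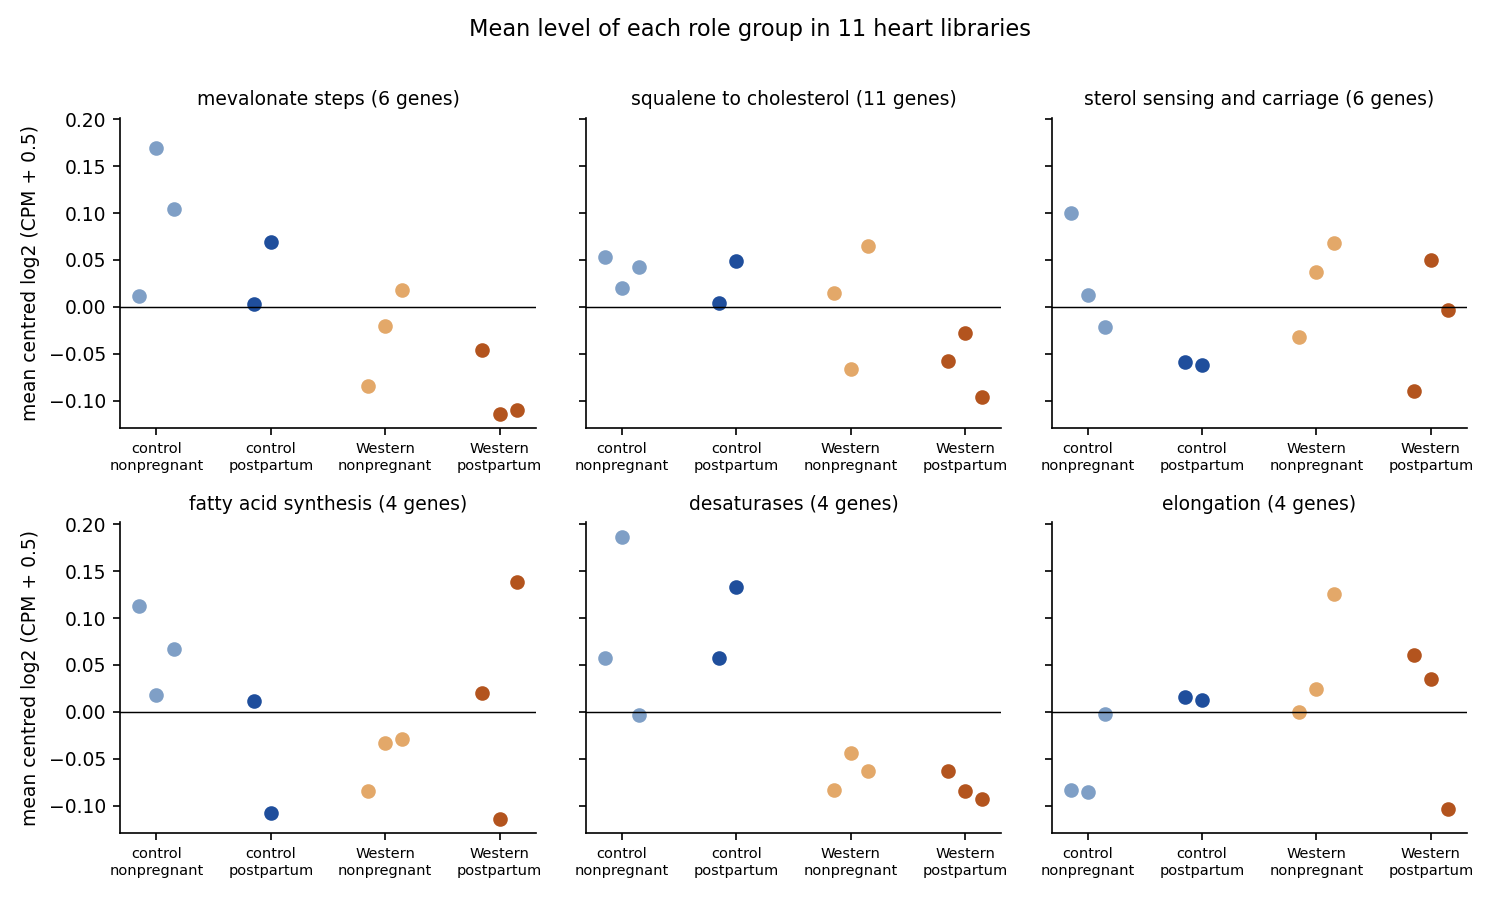
Mean log2 (CPM + 0.5) of the members of each of 6 role groups in each of 11 libraries by group, with each gene centred on its own mean over these libraries. In the desaturases, the 6 Western diet libraries lie at -0.093 to -0.044 and the 5 control diet libraries at -0.003 to 0.187, while in the other groups the diets overlap. Of the 4 desaturases, Scd1 and Scd2 had averaged diet effects below 0 in these libraries, and Fads1 and Fads2 above 0. The separation of the group mean is therefore not shared by all its genes.

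Scd1 and Scd2 lie in a cluster on chr19 with Scd3 (chr19:44203288-44244016) and Scd4 (chr19:44333092-44346743, plus strand). Scd4, a desaturase known from the heart and outside the 35 members, rose on the Western diet. It stood at 4.43, 6.72 and 5.31 CPM in nonpregnant and 4.49, 6.24 and 5.23 CPM in postpartum hearts on the control diet, and at 6.27, 12.6 and 11.1 CPM in nonpregnant and 23.9, 11.7 and 28.5 CPM in postpartum hearts on the Western diet. The fat-marker library was within its group here, and Western diet postpartum libraries were all above every control diet library. The difference in postpartum hearts was 2.01 on the log2 scale (SE 0.30, adjusted p = 0.00775), or 2.0 in the 11 libraries (adjusted p = 0.0377), and the averaged diet effect was 1.44 (SE 0.22, adjusted p = 0.00661). The 11-library postpartum call for Scd4 held in 1 of 5 fits that left out 1 further library. It was lost without replicate 1 (0.468) or 2 (0.115) of the control diet postpartum hearts, without replicate 1 (0.0886) or 3 (0.146) of the Western diet postpartum hearts, and in limma-voom (0.0764). The averaged call for Scd4 held in 9 of 11 such fits. The 4 Scd genes are close paralogs, so reads that fit more than 1 of them may have been lost or assigned to another copy, and opposite changes within the cluster carry that limit.

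Elongation enzymes add carbon units to long fatty acids, and Hsd17b12, their ketoacyl-CoA reductase (chr2:94032689-94157964, minus strand), was lower on the Western diet after pregnancy. It measured 19.5, 20.9 and 20.0 CPM in nonpregnant and 25.0, 23.2 and 30.5 CPM in postpartum hearts on the control diet, and 19.3, 19.6 and 20.4 CPM in nonpregnant and 17.4, 19.7 and 16.9 CPM in postpartum hearts on the Western diet. The 3 control diet postpartum libraries were the highest of the 12, and the other 3 groups overlapped. The diet difference in postpartum hearts was -0.54 on the log2 scale (SE 0.10, adjusted p = 0.0165) and -0.42 in the 11 libraries (SE 0.08, adjusted p = 0.0495). The call ended without Western diet postpartum replicate 1 (adjusted p = 0.0627) or 3 (0.105) in 12 libraries and with only the compared groups in the model (0.0697), and in the 11 it held in 1 of 5 fits that left out 1 further library. On the control diet it was higher postpartum by 0.38 (SE 0.09, adjusted p = 0.131), and the interaction was -0.52 (SE 0.14, adjusted p = 0.359), so a pregnancy effect that differs between diets is not shown.

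Elovl6, which lengthens palmitate to stearate, stood at 0.893, 0.588 and 1.18 CPM in nonpregnant and 1.02, 0.814 and 20.1 CPM in postpartum hearts on the control diet, and at 1.25, 1.06 and 1.30 CPM in nonpregnant and 1.51, 1.09 and 0.642 CPM in postpartum hearts on the Western diet. Apart from the fat-marker library it rested on few counts, as low as 14 in a library, and its groups overlapped in each comparison. Postpartum against nonpregnant on the control diet gave 3.06 (SE 0.96, adjusted p = 0.215) in 12 libraries and 0.07 (SE 0.37, adjusted p = 0.981) in the 11. Elovl1, an elongase of very long chains, ranged from 12.3 to 17.6 CPM and Elovl5, an elongase of polyunsaturated chains, from 26.5 to 33.8 CPM. Elovl5 varied least of the 35 members over the 11 libraries, with a coefficient of variation of 4.27%, and Elovl6 most, with 27.3%.

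**Figure D4:**
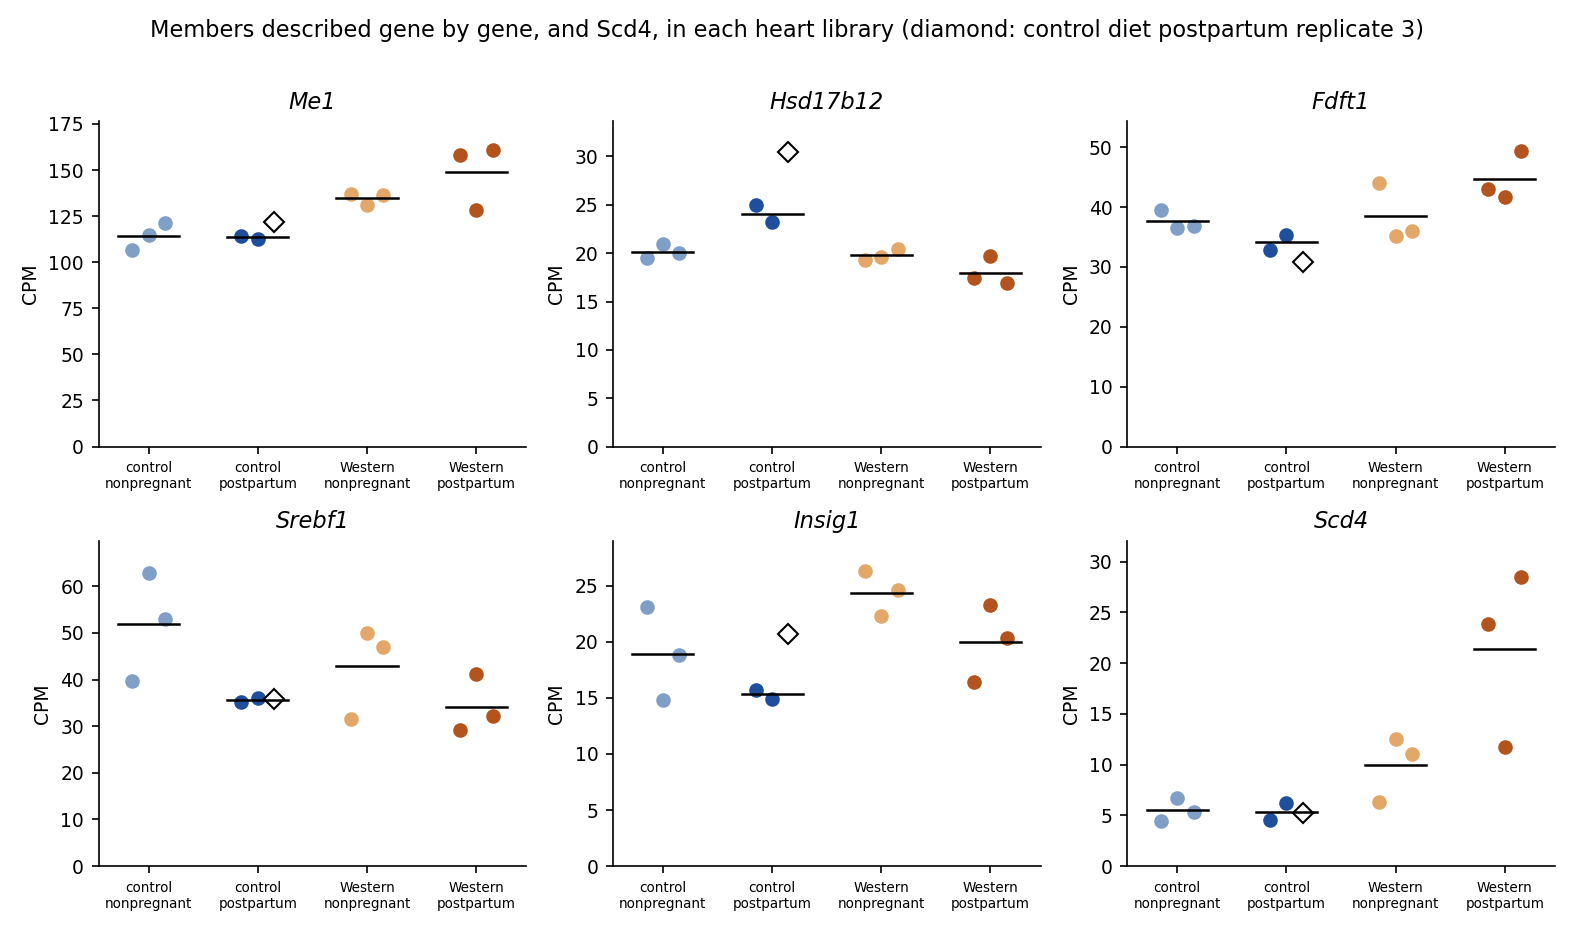
CPM (linear axes from 0) of 5 members and of Scd4 in each library by group, where lines are group means without control diet postpartum replicate 3, drawn as a diamond. All Western diet libraries lie above all control diet libraries for Me1, and the diamond lies highest for Hsd17b12.

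Taking the 35 members as a list, the averaged diet effect was below 0 in 27 of 35 with 12 libraries (median -0.10) and in 24 of 35 with the 11 (median -0.07). Over all genes tested, 49.9% and 50.5% were above 0, and both medians were 0.00. In the 11 libraries the members ran from -0.57 for Scd1 to 0.37 for Insig1. Leaving out the fat-marker library changed the sign of the averaged diet effect for Acly, Elovl5 and Elovl6. The averaged pregnancy effect was above 0 in 19 of 35 members with 12 and in 16 with 11 libraries. Within the list, the averaged diet effect was called with 12 libraries for Me1 alone, which was higher on the Western diet. With the 11 it was called for Me1 (higher) and for Scd1 and Fasn (lower). On leaving out 1 further library, the 11-library call held in 11 of 11 fits for Scd1, 4 of 11 for Fasn and 3 of 11 for Me1.

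**Figure D5:**
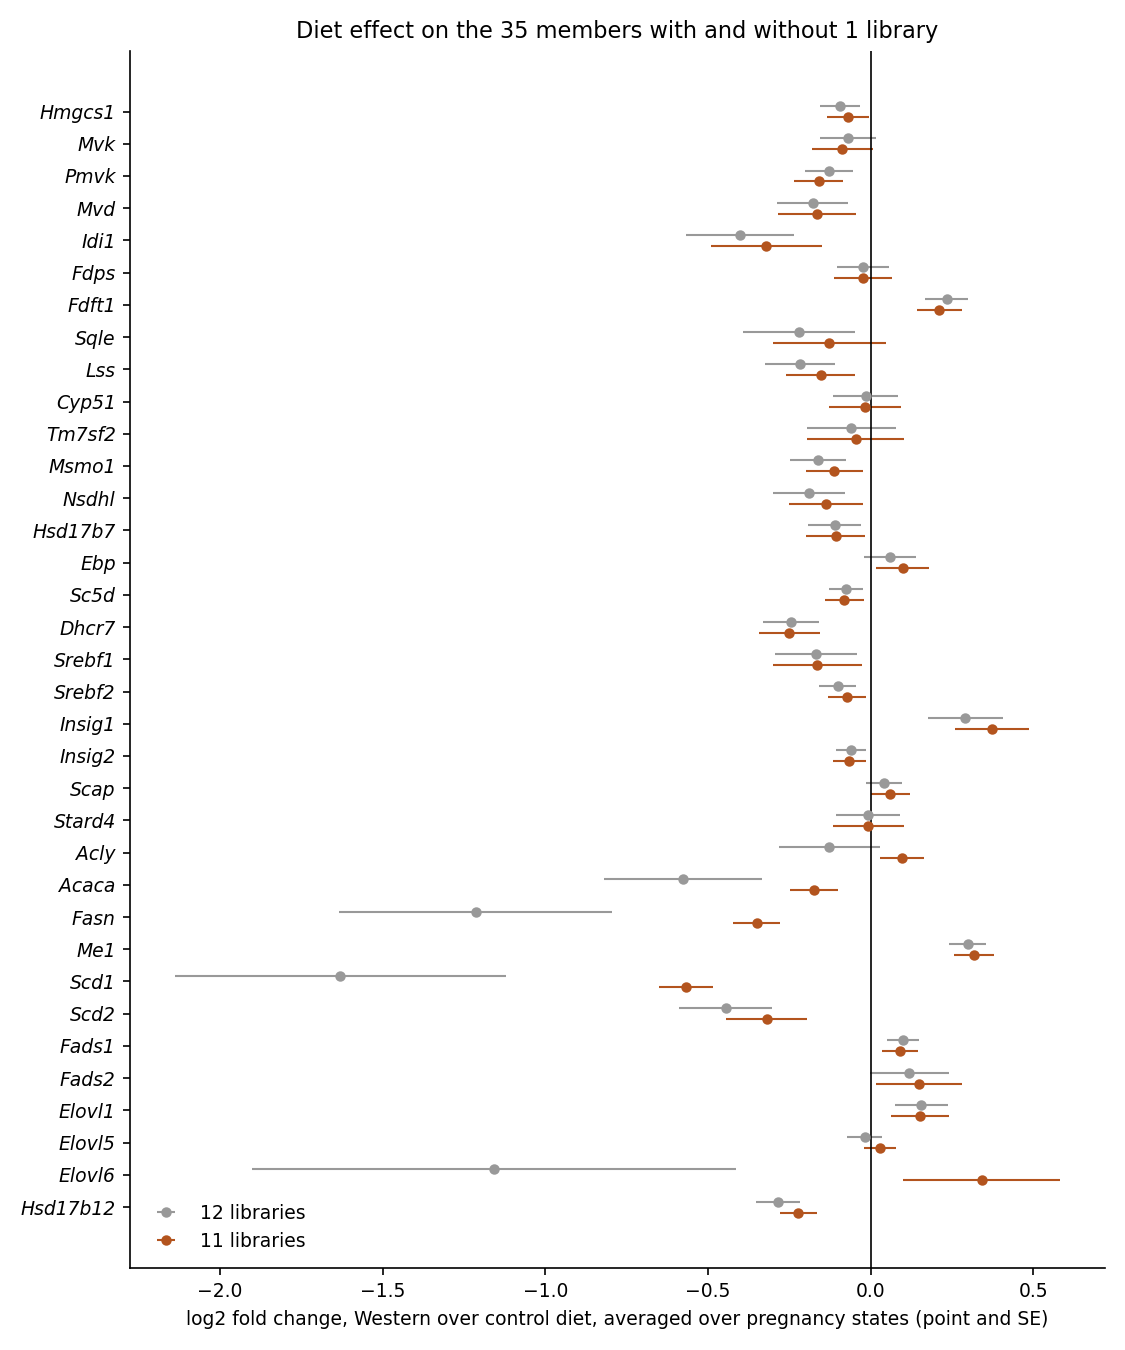
Log2 fold change of each of the 35 members for Western over control diet, averaged over pregnancy states, with its standard error, from 12 libraries (grey) and from 11 (orange). Scd1, Fasn, Acaca and Elovl6 move most between the fits, Scd1 from -1.63 to -0.57 and Elovl6 from -1.16 to 0.34.

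Of 39 other genes of these routes, 37 were tested. In 12 libraries Scd4 and Gpam, the mitochondrial acyltransferase that starts triglyceride synthesis, rose on the Western diet in postpartum hearts, and none of the 37 fell. Gpam was at 101, 123 and 102 CPM in control diet postpartum and 129, 202 and 193 CPM in Western diet postpartum hearts, a difference of 0.69 (SE 0.14, adjusted p = 0.0323) that was 0.64 without the fat-marker library (adjusted p = 0.107). It also missed the threshold without control diet postpartum replicate 1 (0.127) or Western diet postpartum replicate 3 (0.184). Lipa, the lysosomal lipase that frees stored sterol and fatty acids, rose postpartum by 0.24 averaged over diets (SE 0.04, adjusted p = 0.0176, and 0.0362 in the 11 libraries). Its levels were 29.3, 29.0 and 29.5 CPM in nonpregnant and 33.8, 33.4 and 32.5 CPM in postpartum hearts on the control diet, and 29.4, 27.5 and 30.2 CPM in nonpregnant and 36.2, 35.8 and 34.5 CPM in postpartum hearts on the Western diet. Every postpartum library was above every nonpregnant one, and the call ended, at adjusted p = 0.0504, without Western diet postpartum replicate 1. The 11-library Lipa call held in 2 of 11 fits that left out 1 further library, with adjusted p of 0.051 to 0.143 in the other 9. Summed macrophage markers were 137 to 179 CPM in nonpregnant and 175 to 213 CPM in postpartum hearts, and their part in Lipa was not tested. Tecr, the last reductase of elongation, was at 435, 404 and 336 CPM in control diet postpartum and 346, 337 and 324 CPM in Western diet postpartum hearts, with the 336 CPM in the fat-marker library. In the 11 libraries it fell by 0.33 on the log2 scale on the Western diet (SE 0.06, adjusted p = 0.0493), and in 12 the difference was -0.22 (adjusted p = 0.201). The 11-library Tecr call held in 1 of 5 fits that left out 1 further library. Lost calls were those without replicate 1 (0.537) or 2 (0.112) of the control diet postpartum hearts, and without replicate 1 (0.0982) or 3 (0.216) of the Western diet postpartum hearts.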

How the data were processed

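Per the submitters' processing notes, the authors used STAR 2.5.2b against GRCm38 (mm10), featureCounts from Subread 1.5.2, and FastQC. The deposited values are raw counts per gene, per the file headers, beside the authors' gene length in bases. How strand was treated in counting is not given in the sources used here. Genes that overlap on opposite strands may therefore share or lose counts. Apart from strand, reads that fit more than 1 close paralog may have been lost or assigned to another copy.

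Libraries were grouped by their labels, 3 in each of 4 groups, with replicate numbers in accession order. Genes were filtered with filterByExpr (minimum count 10, minimum total 15), which left 15476 of 49315 genes, and 15716 without control diet postpartum replicate 3. TMM scaling and edgeR 4.0.16 (R 4.3.3) quasi-likelihood tests used all groups in 1 model, with p-values adjusted by Benjamini-Hochberg over all genes tested and a threshold of 0.05. The common biological coefficient of variation was 9.62%. A standard error (SE) is the log2 fold change over the root of its F. CPM used the scaled library sizes, and role levels log2 (CPM + 0.5). The script was tested on simulated data.

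Library totals were 22754591 to 29492416 counts. The limit of a count of 0 is 3 counts of the total. Groups were called apart where no library of 1 lay within the range of the other. Gene symbols came from RefSeq's annotation, in which 345 genes had none. Promoters came from RefSeq (GRCm38.p6).

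Named genes were the 3 members with the smallest p in each comparison, and always Srebf1, Srebf2, Insig1, Hmgcs1, Fasn and Scd1; other members appear by range or with what they do in the fat-marker library, and Scd4, Gpam, Lipa and Tecr because they passed. The members and lists were chosen with earlier results of these data known. Alternatives were DESeq2 1.42.0 and its size factors, limma-voom 3.58.1, other filters, the compared groups alone and leaving out each library.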

Additional observations from a re-analysis of the deposited data

How the results depend on the processing

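With no filter on low counts, edgeR called 7, 1, 9, 5, 6, 5, 7 and 9 members (postpartum against nonpregnant on the control and on the Western diet, diet in postpartum and in nonpregnant hearts, Western diet postpartum against control diet nonpregnant, interaction, averaged pregnancy, averaged diet), and its prior degrees of freedom became infinite there against 5.74, so each gene's own spread no longer counted. DESeq2 called 1 on the control diet, 2 for Western diet postpartum against control diet nonpregnant, 1 for pregnancy and 4 for diet, and gave no adjusted p for Scd1 and Fasn. With the compared groups alone, 0 members passed for diet in postpartum hearts. In the 11 libraries DESeq2 called 4 members for diet in postpartum and 1 in nonpregnant hearts, 5 for Western diet postpartum against control diet nonpregnant, 1 for pregnancy and 3 for diet, and limma-voom called 3 in the fifth comparison and 3 for averaged diet. Leaving out 1 library gave 0 to 3 calls for diet in postpartum hearts, 0 to 3 for Western diet postpartum against control diet nonpregnant, 0 to 1 for pregnancy and 0 to 3 for averaged diet; leaving out control diet postpartum replicate 3 and 1 more gave 0 to 4 and 1 to 4 in the fifth and the last. These pairs, and DESeq2 and limma-voom on 11 libraries, were chosen after seeing the data. Apart from edgeR without control diet postpartum replicate 3 alone, the share of all genes called was not counted in these settings. The numbers of members called in them are therefore not read as a result about the members. Elovl6 on the control diet ranged from -0.15 to 3.59 on leaving out libraries, and turned from 3.06 to -0.11 without postpartum replicates 1 and 3 of that diet and to -0.15 without its postpartum replicate 3 and nonpregnant replicate 2. The cause of these changes was not tested beyond the prior. Of the values for single members, 565 kept their direction and side of the threshold, 43 lost and 73 gained a call; for Scd4, Lipa, Gpam and Tecr these were 123, 49 and 5. No paired analysis was possible because each title carries its own number and the groups share none. With 3 libraries a group, small differences in members of low count, such as Elovl6, were not detectable. Small differences in the other members could be missed too. In simulated counts for diet in postpartum hearts, edgeR recovered 39 of 67 set changes of 1.5-fold in genes of 1 CPM or more. It recovered 56 of 67 changes of 2-fold. A member without a call is therefore not shown to be unchanged.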
